A study of Mus musculus with 86 samples.

Results

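Small RNA from mouse testis at postnatal day 10 (P10) was sequenced in 2 kinds of library, and the comparison described here sets 4 piRNA-enriched libraries, so named in their labels, against 4 untreated small RNA libraries. These are 8 of the 86 samples of the series. They were chosen by joining, on row name, the P10 columns of both count tables, with both genotypes kept together, and all 24276 features occur in both tables. The series compares homozygous *Btbd18* knockout mice with heterozygous animals, and BTBD18 is a nuclear protein that the series ties to transcription of piRNA loci. Each kind of library holds 2 heterozygous and 2 homozygous knockout samples of whole testis at P10, all on the C57BL/6 (B6) X 129/SvJ hybrid strain, so the control animals carry 1 knockout allele and no wild-type animal is among them. Heterozygous small RNA libraries of P14 and P18 and testis RNA libraries of P10 and P14, of the same strain, were used beside them where named. How the piRNA was enriched is not stated in the labels, whose titles carry only the word beta. Nothing in the labels says that replicates are different animals, and the p values below rest on the spread among replicates only, which may be technical. All enriched libraries stand in 1 count table and all untreated ones in another, so the enrichment cannot be told apart from any other difference between those sets.

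piRNAs are small RNAs of germ cells that are bound by PIWI proteins and silence transposons. In the testis one set, the prepachytene piRNAs, is made from many protein-coding transcripts and a few other loci before and around birth and in spermatogonia, and another, the pachytene piRNAs, comes mostly from long intergenic transcripts that are switched on when spermatocytes enter pachytene. Mature piRNAs carry a methyl group on the last sugar, added by HENMT1, whereas most animal miRNAs, which are cut from hairpins and bound by Argonaute proteins, do not. Small nucleolar RNAs (snoRNAs) guide chemical changes of ribosomal RNA, box C/D members guiding methylation and H/ACA members guiding pseudouridylation. At P10 the testis holds spermatogonia and spermatocytes of early meiosis beside somatic cells.

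The sequences below, from RefSeq (build GRCm38.p6), belong to the miRNA genes on which the comparison turned, printed 5′ to 3′ with the seed (bases 2 to 8) in capitals. The first 5 genes were abundant without enrichment and far lower with it, Mir677 and Mir547 gained share, and Mir6239 was the sole miRNA gene called higher. The tables count whole hairpin genes and do not tell the arms apart, so both arms are shown where RefSeq has both.
miR-148a-3p: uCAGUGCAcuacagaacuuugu
miR-148a-5p: aAAGUUCUgagacacuccgacu
miR-10b-5p: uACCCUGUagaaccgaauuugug
miR-10b-3p: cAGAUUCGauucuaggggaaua
let-7g-5p: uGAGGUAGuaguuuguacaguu
let-7g-3p: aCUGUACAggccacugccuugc
let-7i-5p: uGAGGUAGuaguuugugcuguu
let-7i-3p: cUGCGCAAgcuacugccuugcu
miR-202-3p: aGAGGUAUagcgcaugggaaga
miR-202-5p: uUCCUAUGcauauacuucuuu
miR-677-5p: uUCAGUGAugauuagcuucuga
miR-677-3p: gAAGCCAGaugccguuccugagaagg
miR-547-3p: cUUGGUACaucuuugagugag
miR-547-5p: cACUUGAGgauguaccaccca
miR-6239: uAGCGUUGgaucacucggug
Both let-7 genes share the seed GAGGUAG on their 5p arm, and no other pair among these sequences shares one.

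Depth ran from 4.03 to 4.83 M counts (M, mega) in the untreated and from 2.50 to 3.88 M in the enriched P10 libraries. *Btbd18*, the targeted gene, had 100 to 113 counts in the 3 heterozygous and 14 to 22 in the 3 knockout testis RNA libraries of P10, on the side their labels give. In untreated small RNA it had 15 and 17 counts in heterozygous and 4 and 8 in knockout libraries. In enriched ones it had 98 and 90 against 47 and 108. Knockout enriched 2, at 27.8 CPM, thus lay level with heterozygous enriched 2 at 28.3 CPM. In enriched libraries of P14 the gene had 75 and 35 counts in heterozygotes and 79 and 45 in knockouts, the latter from smaller libraries. Small RNA of this gene thus did not follow genotype in enriched libraries across ages, and it cannot tell whether a label is right. Comparisons of genotypes below follow the labels and are also given without knockout enriched 2. In that testis RNA (6 libraries) the spermatogonial gene *Zbtb16* was at 110 to 145 counts per M counts of the library (CPM), *Kit* at 169 to 242, the meiotic gene *Sycp1* at 127 to 252 and the Sertoli cell gene *Amh* at 355 to 652 CPM, while the spermatid genes *Tnp1* and *Prm2* were at 0 to 0.289 and 0 to 0.304 CPM and the leukocyte gene *Ptprc* at 3.02 to 4.83 CPM. The tissue and age of the labels thus had their defining markers. Across all 24276 features, log2 CPM correlated at 0.972 to 0.984 between libraries of 1 kind and at 0.840 to 0.885 between kinds. Rows with few or no counts are among these features. One library, heterozygous enriched 2, stood apart from the other 3 enriched libraries at intergenic piRNA loci, and results that rest on it are given with and without it.

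The enriched libraries held a far smaller share of miRNA and a larger share of nearly every other class. Values are given in the order heterozygous 1, heterozygous 2, knockout 1, knockout 2 throughout. miRNA genes took 38.6, 36.0, 43.1 and 42.7% of counts in the untreated libraries and 3.18, 2.59, 3.63 and 2.68% in the enriched ones. Mean miRNA share was 40.1% ± 3.43 (SD, n = 4) against 3.02% ± 0.483 (SD, n = 4), 13.3-fold lower after enrichment, and no enriched library came near the untreated range.

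piRNA loci rose from a small base. The 114 genic loci, named after protein-coding or other genes, took 1.27, 1.39, 1.59 and 1.76% of counts without enrichment and 9.24, 10.7, 9.95 and 11.4% with it, a 6.87-fold higher mean. The 100 intergenic loci, named by chromosome band, took 0.265, 0.303, 0.331 and 0.379% against 1.98, 5.29, 2.14 and 2.25%, where heterozygous enriched 2 lies far above the other 3. Without that library their enriched mean was 6.64-fold the untreated mean. Ribosomal protein genes went from a mean of 0.0275 to 0.181% of counts, 6.60-fold. A gain of that size was thus not particular to the loci. All 214 loci together made up 1.82% ± 0.266 of untreated and 13.2% ± 2.11 of enriched counts (SD, n = 4 each), so that most counts of the enriched P10 libraries lay outside the loci. In heterozygous enriched libraries of later ages the loci took 52.8 and 90.2% at P14 and 92.8 and 93.9% at P18.

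The larger part of the enriched libraries came from rows of ordinary genes. Classes were set by row name, so these rows still hold some snoRNA genes with other names. The rows, which exclude histone and ribosomal protein genes, took 13.5 to 15.8% of untreated counts and 49.0, 54.5, 51.3 and 55.8% of enriched counts, a 3.52-fold higher mean. A single row, that of the snoRNA host transcript *Gas5*, held 43.9% of their untreated counts, and without it the class went from 8.40% ± 1.12 to 51.3% ± 3.29 (SD, n = 4 each), 6.10-fold. Box C/D snoRNAs went from 39.6 to 17.6% of counts, 2.24-fold lower, whereas H/ACA snoRNAs went from 0.292% ± 0.0151 to 1.25% ± 0.193 (SD, n = 4 each), 4.28-fold higher. Much of that gain lay in Snora31, from a mean of 174 to 3207 CPM (counts per M counts), and Snora7a, from 257 to 3675 CPM. Of 31 tested H/ACA genes 13 had every enriched library above every untreated one in share, and 11 had every one below. Among all 11417 tested features 10705 lay above and 347 below in this way. Other small structured RNAs, led by the row of the 45S ribosomal RNA precursor, went from 2.54, 3.26, 3.55 and 3.26% to 14.8, 11.3, 10.7 and 10.7%. For each of the 8 classes tested the enriched and untreated libraries did not overlap, and the exact two-sided permutation test of mean share gave p = 0.0286 (adjusted p = 0.0286), the smallest that 4 against 4 libraries allow.

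**Figure D1:**
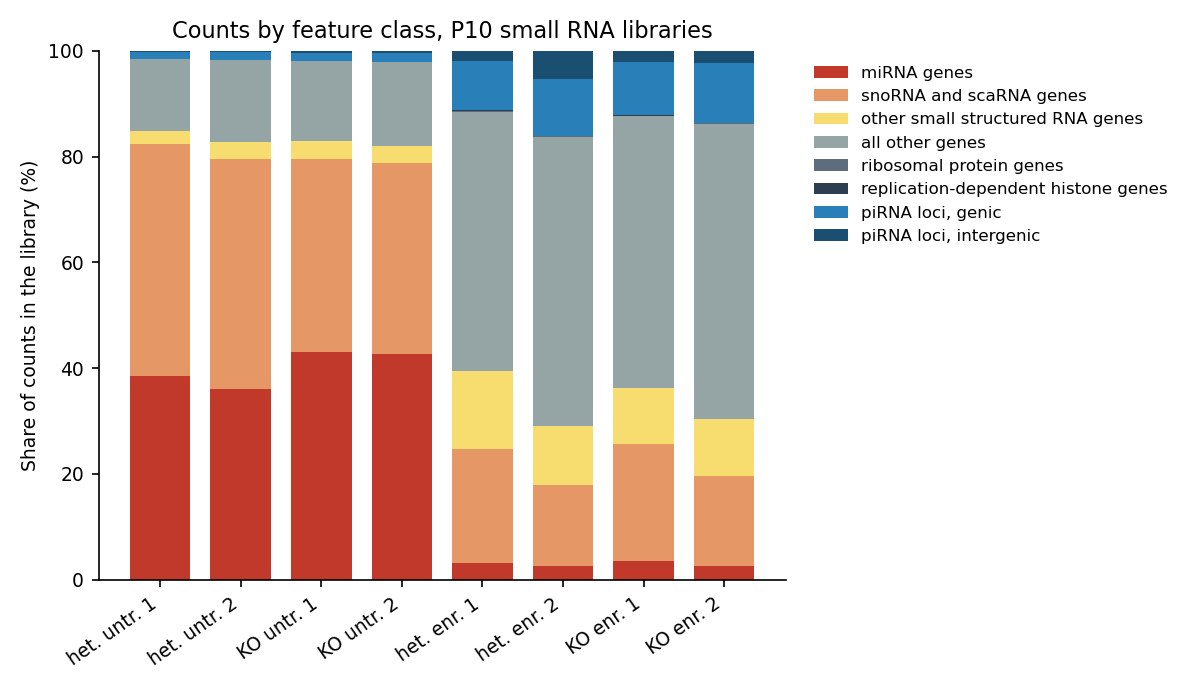
Share of all counts (percent) taken by each class of features, as stacked colours of 1 bar per library, in the 4 untreated (untr.) and 4 enriched (enr.) P10 libraries of heterozygous (het.) and knockout (KO) testes. miRNA genes fell from a mean of 40.1% to 3.02%, and genic piRNA loci rose from 1.502% to 10.3%.

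The share of almost every feature outside the miRNA and box C/D snoRNA genes was higher after enrichment. Scaled by total counts, 10989 of 11417 tested features (96.3%) were called higher and 355 (3.11%) lower after enrichment, with a median log2 difference of 2.56. The differences below are therefore relative to the typical feature, by TMM scaling, under which the median is -0.02, and a feature with an unchanged share of counts sits near -2.6 on that scale. With edgeR's quasi-likelihood test at an adjusted p below 0.05, 636 features (5.57%) were higher and 968 (8.48%) lower. In the text, rose and fell refer to this relative scale unless a share is named, and each log2 difference carries its standard error where given. The split of calls depends on the scaling and the number on single libraries: without heterozygous untreated 1 it was 890 and without knockout untreated 1 it was 1005, against 1604.

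By class, 274 of 283 tested miRNA genes fell and 1 rose, with a median log2 difference of -6.79. All but 1 of 64 tested box C/D snoRNA genes fell (median -3.81), as did 22 of 31 H/ACA snoRNA genes (median -2.58), of which 4 rose. Of 97 tested genic piRNA loci 8 rose and 40 fell (median -0.12), and of 81 intergenic loci 6 rose and none fell (median 0.46). The counts of loci that rose, 8 of 97 and 6 of 81, are near the 5.57% of all features, and they rest on single libraries: intergenic loci that rose numbered 0 without heterozygous untreated 1, 1 without knockout untreated 1, 3 without heterozygous untreated 2, knockout untreated 2 or heterozygous enriched 2, and 40 without heterozygous enriched 1, and 25 fell without heterozygous enriched 2. Genic loci that rose numbered 1 without heterozygous untreated 1 or knockout untreated 1, 3 without knockout untreated 2, 4 without heterozygous or knockout enriched 2 and 15 without heterozygous enriched 1, and none rose in either genotype alone. The 40 genic loci that fell became 26 without heterozygous untreated 1 and 33 to 42 without any other library. The median of the 10741 tested ordinary genes was -0.00, with 614 higher and 529 lower. Scaled by total counts the miRNA genes kept their direction, with 270 lower and 12 higher, whereas genic loci turned to 89 higher and 1 lower, intergenic loci to 81 higher, box C/D snoRNA genes to 16 higher and 44 lower and H/ACA genes to 13 higher and 12 lower.

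In shares, which need no scaling factor, every enriched library was above every untreated one for 83 of 97 genic and 65 of 81 intergenic loci, and below for 265 of 283 miRNA genes. Among all 11417 features 10705 lay above without overlap, so such separation was not particular to the loci. With the replicate number as a block, 10 intergenic and 19 genic loci rose, in place of 6 and 8.

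**Figure D2:**
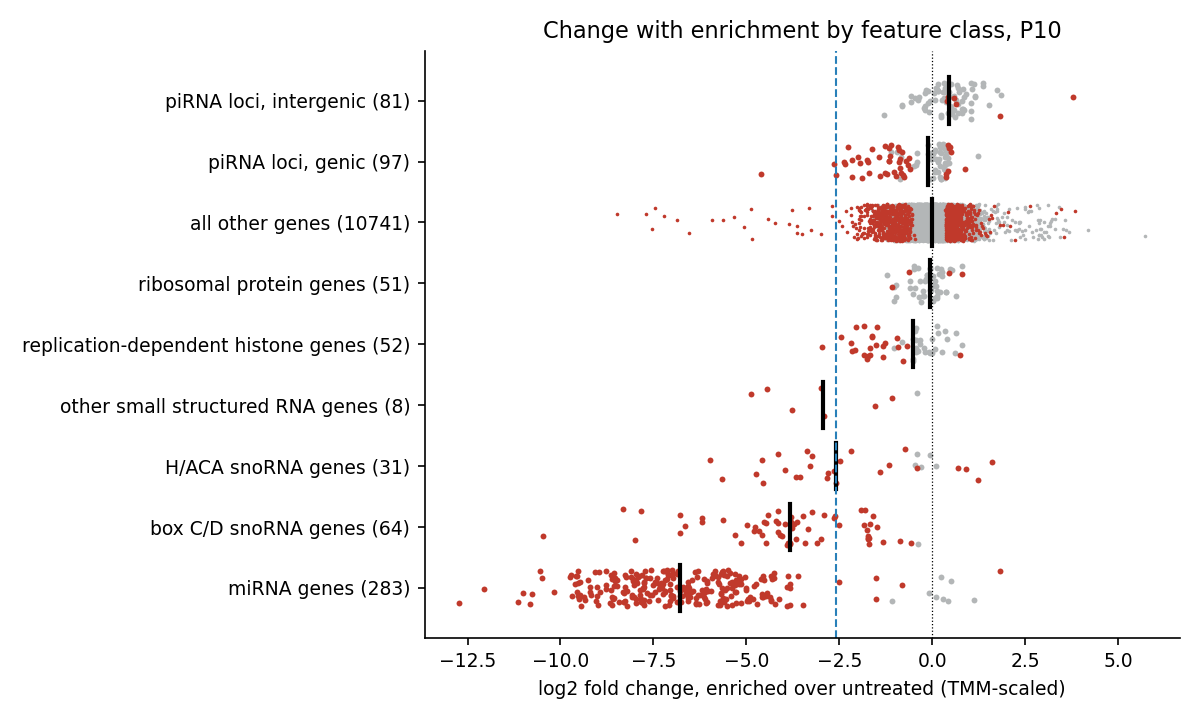
Log2 difference between enriched and untreated P10 libraries (TMM scaling) of each tested feature by class, 1 point per feature, with called features in red, other features in grey and class medians as black bars. The dashed line marks where a feature with an unchanged share of counts lies; the miRNA median of -6.79 lies far below it, and the medians of genic (-0.12) and intergenic (0.46) piRNA loci lie near 0, the typical feature.

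Among miRNA genes the fall was wide in size. Mir148a (chr6:51269812-51269910), the most abundant one without enrichment, had 55724, 47778, 50650 and 50981 CPM in untreated and 2867, 2128, 2814 and 2088 CPM in enriched libraries (log2 difference -6.98 ± 0.30, adjusted p = 5.14e-13). Its CPM was 20.7-fold lower after enrichment, and the groups lay far apart. Mir10b (chr2:74726070-74726137, overlapping *Hoxd3* and *Hoxd4*) had 25666, 23726, 25616 and 28765 CPM against 5513, 4590, 7170 and 5393 CPM (-4.80 ± 0.24, adjusted p = 4.99e-12), a 4.58-fold lower CPM that left it the most abundant miRNA gene of the enriched libraries.

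The let-7 genes, whose family represses growth and stem cell genes, fell together. Mirlet7g (chr9:106178840-106178927, in *Wdr82*) went from 23157, 23635, 28760 and 27990 CPM to 2423, 1905, 2908 and 2135 CPM, a log2 difference of -6.07, and Mirlet7i (chr10:122985640-122985724, in no other gene) was 15.6-fold lower in CPM. All 10 tested members of the let-7 list fell, and their summed CPM was 12.7-fold lower. Mir202 (chr7:139957689-139957760, in a lncRNA gene), a gonad miRNA, went from 16117, 12924, 15505 and 16516 CPM to 240, 192, 285 and 231 CPM, 64.4-fold lower in CPM (-8.62 ± 0.26, adjusted p = 3.61e-15). Among these abundant genes the loss in CPM ran from 4.58-fold for Mir10b to 64.4-fold for Mir202.

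Every tested member fell in 9 of the 11 lists of miRNAs, and the other two were mirtrons, of which 3 of 4 fell, and the miR-290 cluster of early embryonic cells, of which none was tested and 8 of the 9 genes in the table had no count in the 8 libraries. The summed CPM of the miR-17-92 and paralogous clusters, which favour proliferation, was 8733 without and 336 with enrichment (13 of 13 fell). That of the imprinted Dlk1-Dio3 cluster was 21.6-fold lower (30 of 30 fell), that of the X-linked testis clusters 9.16-fold lower (17 of 17 fell) and that of the miR-34 and miR-449 family, which acts in late spermatogenesis and in ciliated cells, 10.8-fold lower (4 of 4 fell). For comparison, 8.48% of all tested features fell, and 274 of 283 tested miRNA genes. The falls thus do not set these lists apart from other miRNA genes.

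The furthest fall by p was that of Mirlet7j, from 998, 1013, 1092 and 1189 CPM to 1.996, 0.945, 0.625 and 0.515 CPM (-12.73 ± 0.24, adjusted p = 5.25e-17). Mir107 (in *Pank1*), Mir125b-2, Mir708 (in *Tenm4*), Mir210, known for its induction by low oxygen, and Mir335 (in *Mest*) followed, with log2 differences of -9.57, -9.18, -8.66, -9.70 and -9.49. None of these genes kept more than 9 CPM in an enriched library.

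A few miRNA rows did not follow. Mir6239 (chr14:117953743-117953847, in *Gpc6*) rose from 3.52, 3.75, 8.43 and 7.61 CPM to 112, 134, 125 and 93.5 CPM (1.82 ± 0.17, adjusted p = 1.16e-07) and was the single miRNA gene called higher. Mir677 (chr10:128085286-128085363, in *Atp5b*) had 198, 205, 166 and 161 CPM against 1444, 1173, 1408 and 1136 CPM, a 7.07-fold higher share that did not differ from the typical feature beyond the spread (0.23 ± 0.13, adjusted p = 0.284). Mir547 (chrX:67988374-67988451) had 300, 313, 551 and 371 CPM against 835, 730, 1025 and 600 CPM, and Mir3535 (in *Ncl*) 1355, 1246, 920 and 800 against 2432, 1915, 2827 and 1920 CPM. Their shares were higher in each enriched library, and their relative differences of -1.52 and -1.50 turned to 1.08 and 1.10 by total counts. Besides Mir677 the miRNA rows not called in either direction were Mir17hg and Mir22hg, which are host transcripts, Mir702, a mirtron, and Mir1291, Mir6364, Mir8091 and Mir6238. Mir677, Mir547 and these 7 were singled out after their values were seen.

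snoRNAs parted by family and by member. Snord95 (in *Rack1*) had 13075, 12131, 9920 and 9991 CPM in untreated and 59.1, 34.3, 56.2 and 42.8 CPM in enriched libraries (-10.47 ± 0.30, adjusted p = 1.33e-15), a 234-fold lower CPM. Snord64 (in *Snhg14*), Snord1b (in *Snhg16*) and Snord65 also fell (-7.98, -7.83 and -8.31). Snord2 (in *Eif4a2*), the row with the most box C/D counts among those named, went from 112623, 102630, 84417 and 82486 CPM to 9085, 5997, 9404 and 7170 CPM (-6.18 ± 0.32, adjusted p = 1.12e-11). The box C/D gene not called was Snord104, with 3024, 2788, 2555 and 2576 CPM against 14989, 9733, 14840 and 11382 CPM (-0.38 ± 0.18, adjusted p = 0.173, or 0.0345 with the replicate block, by which it fell). Its share was higher in every enriched library, as for 16 of the 64. Snord2 and Snord104 were picked after their values were seen.

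Among H/ACA snoRNAs, Snora31 (in *Tpt1*) rose from 202, 176, 161 and 156 CPM to 3152, 2743, 4067 and 2866 CPM (1.60 ± 0.15, adjusted p = 9.66e-08). Snora7a (in *Rpl32*) rose from 283, 275, 239 and 232 CPM to 3729, 3110, 4312 and 3547 CPM (1.23 ± 0.14, adjusted p = 1.45e-06). The other two that rose were Snora62 (in *Rpsa*; 0.70, adjusted p = 0.00185) and Snora78 (0.91, adjusted p = 0.0364). All 4 were far above their untreated range in each enriched library, and they also rose by total counts. Scarna17, a guide RNA of Cajal bodies, fell from 59.2, 59.0, 60.3 and 67.6 CPM to 0.799, 2.52, 2.81 and 2.83 CPM (-7.36 ± 0.20, adjusted p = 8.28e-16). Gm12238, AF357359 and DQ267102, which the classing by row name left among ordinary genes and RefSeq classes as snoRNA genes, fell as well (-6.86, -7.52 and -5.63), the last 2 inside *Rian*. *Gas5*, a transcript that hosts several snoRNAs, had 63593, 77271, 59852 and 61631 CPM against 16218, 10709, 15230 and 13188 CPM (-4.84 ± 0.28, adjusted p = 6.98e-11).

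Structured RNAs other than snoRNAs split in share. The 45S ribosomal RNA precursor row Rn45s had 16100, 23066, 26141 and 22673 CPM without and 128448, 98168, 88598 and 91367 CPM with enrichment (-0.40 ± 0.22, adjusted p = 0.256). That is the largest single row of the enriched libraries among those named, at about the relative gain of the typical feature. Rmrp, the RNA of a ribosomal RNA processing enzyme, was higher in share yet lower relative to the typical feature (-1.07, adjusted p = 0.000187, and 1.53 by total counts). Rnu12 and Rnu11, RNAs of the minor spliceosome, fell (-4.45 and -3.77), and so did Rpph1, the RNA of ribonuclease P (-2.98).

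At the piRNA loci the largest rows kept close to the typical feature. The intergenic locus 7-qD2-40 led, with 1633, 1847, 2005 and 2303 CPM untreated and 12375, 13622, 12524 and 14252 CPM enriched, 9.95% of all locus counts of the enriched libraries. Its share was 6.78-fold higher with no overlap, and its relative difference was 0.16 ± 0.14 (adjusted p = 0.506). The genic locus pi-D10Wsu102e (host gene at chr10:83360221-83368835 of GRCm38) followed, with 1216, 1509, 1548 and 1391 CPM against 8025, 9711, 8654 and 10199 CPM (0.08 ± 0.15, adjusted p = 0.77). Among the next largest, pi-Elk4 and pi-Trim71 had 6.46- and 7.40-fold higher CPM and relative differences of 0.09 and 0.29 that missed the threshold. Their host genes encode a transcription factor and a let-7 target of early development.

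Of the 10 loci with the most enriched counts, 1 rose. This was pi-Rab11fip4 (host gene at chr11:79591021-79698016), from 618, 698, 920 and 955 CPM to 5669, 7232, 7064 and 7298 CPM (0.51 ± 0.13, adjusted p = 0.0161). Among the others were pi-D730040F13Rik, pi-Cbl, pi-Foxo3 and pi-Hmbox1, at 6.19-, 7.12-, 7.56- and 6.97-fold higher CPM. With the replicate block pi-Foxo3 was also called (0.33, adjusted p = 0.0285, against 0.109 without it). All 10 had every enriched library above every untreated one, as did 10705 of all 11417 tested features.

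**Figure D3:**
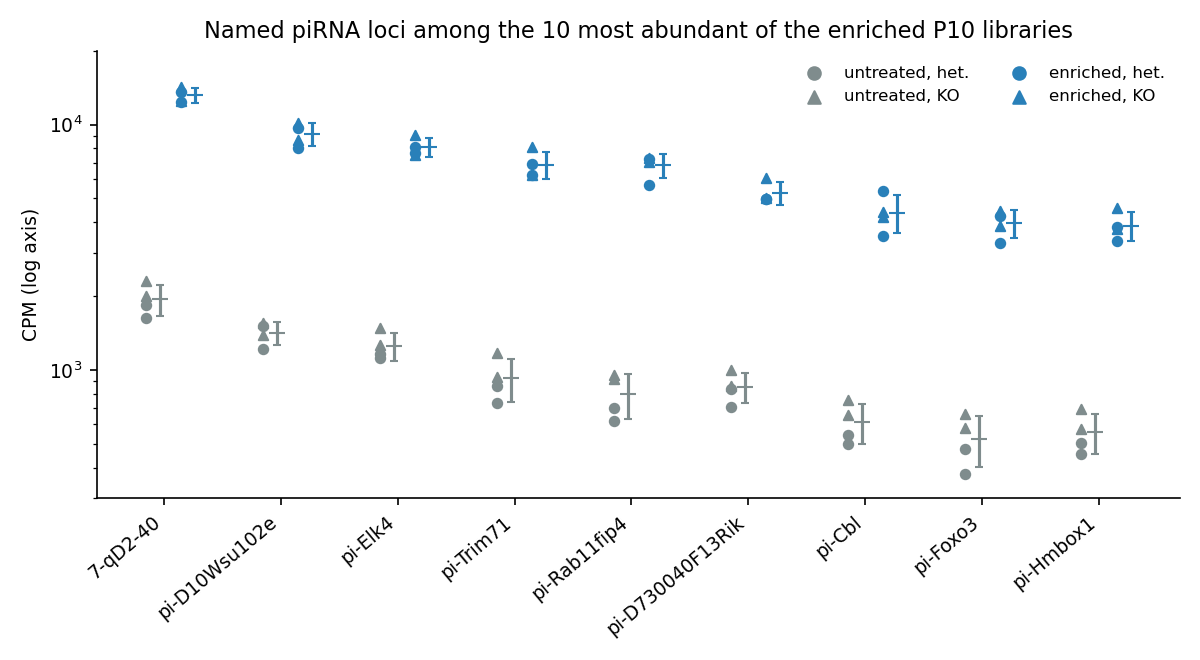
CPM (log axis) of the loci named here among the 10 piRNA loci with the highest mean over the enriched P10 libraries, 1 point per library, untreated and enriched, with the mean and SD of each kind as bars. The 2 kinds of library do not overlap at any locus shown, and 7-qD2-40 leads at 12375 to 14252 CPM in enriched libraries. Of all 11417 tested features 10705 also lay above without overlap.

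The genic loci that rose ranged from abundant to scarce. pi-Eif4ebp2, whose host encodes a repressor of translation, went from 293, 336, 388 and 456 CPM to 2822, 3208, 2990 and 3334 CPM (0.48 ± 0.12, adjusted p = 0.0148). pi-Ssh1, pi-Zfp652 and pi-Mafg rose by 0.46, 0.43 and 0.42 (adjusted p = 0.0163, 0.0228 and 0.0368), and pi-Tbl2, from 2.49, 1.64, 2.73 and 4.70 CPM to 21.6, 33.1, 40.3 and 31.2 CPM, by 0.87 ± 0.23 (adjusted p = 0.0182). Without heterozygous enriched 2, pi-Tbl2 and pi-Mafg missed the threshold (adjusted p = 0.0633 and 0.0754). The 8 genic loci that rose had a median of 221 CPM without and 1814 CPM with enrichment, the 49 not called 53.7 and 337 CPM, and the 40 that fell 8.38 and 20.4 CPM.

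pi-Lpp stood alone among genic loci. It had 234, 216, 251 and 278 CPM in untreated and 67.1, 49.5, 60.6 and 69.3 CPM in enriched libraries (-4.59 ± 0.15, adjusted p = 1.32e-14), and it was the only genic locus whose share was lower in every enriched library. The host gene *Lpp* (chr16:24393350-24992578), which encodes a focal adhesion protein, contains the miRNA gene Mir28a in the reference, and the row for that miRNA had no count in any of the 8 libraries. Host rows of genic loci were nearly empty as well (275 counts in the 4 enriched libraries, against 1332456 at the locus rows). The empty miRNA row thus does not tell whether that miRNA was absent or counted at pi-Lpp, and its part in the fall was not tested. Of the hosts found in the reference, 6 of 39 for loci that fell, 5 of 48 for loci not called and 1 of 8 for loci that rose contain a miRNA or snoRNA gene.

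For the other genic loci that fell, the fall was a smaller gain than that of the typical feature. pi-Rad54l2 had 14.7, 14.8, 14.6 and 15.9 CPM without and 12.8, 14.5, 17.5 and 16.5 CPM with enrichment, so its share overlapped (-2.58 ± 0.15, adjusted p = 9.11e-11, and 0.02 by total counts). pi-Wdfy3, pi-Rc3h1, pi-Cramp1l and pi-Arhgap20 fell by 2.36, 2.34, 1.76 and 2.26, and by total counts they turned to 0.24, 0.27, 0.84 and 0.34. In 27 of the 40 every enriched library was above every untreated one in CPM, against 10705 of all 11417 tested features. Hosts of genic loci had almost no counts in rows of their own: 107 of 114 have such a row, and these held 275 counts in the 4 enriched libraries against 1332456 at the locus rows.

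Of the 6 intergenic loci that rose, 13-qA5-703 had the smallest p, with 14.3, 18.3, 20.8 and 22.4 CPM against 146, 215, 173 and 155 CPM (0.59 ± 0.14, adjusted p = 0.00987). 2-qE5-4 went from 148, 179, 225 and 246 CPM to 1386, 1626, 1704 and 1746 CPM (0.43 ± 0.12, adjusted p = 0.0211). Both rose without heterozygous enriched 2 as well (adjusted p = 0.0274 and 0.0359). 6-qF3-3040, at 2670, 2949, 2809 and 3076 CPM in enriched libraries, came to an adjusted p of 0.0392, and of 0.0512 without that library. The calls of 4-qB3-639 (adjusted p = 0.0389), 13-qB1-1517 (0.0465) and 14-qC1-1261 (0.0498) were lost without it (0.383, 0.252 and 0.113).

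Heterozygous enriched 2 held sequences of intergenic loci at levels no other P10 library reached. At 17-qA3.3-26735 it had 9483 CPM, against 119, 64.7 and 71.1 CPM in the other enriched libraries and 53.6, 73.1, 50.3 and 47.7 CPM in the untreated ones. 17-qA3.3-27363 behaved alike, with 4136 CPM against 61.9, 37.8 and 37.6 CPM. Of 1200 features at 100 CPM or more in this library, 28 were at least 5-fold above the mean of the other 3 enriched libraries, and all 28 were intergenic loci. Its summed markers of late pachytene cells, 95.8 CPM, were the highest of the enriched libraries (61.5 to 95.8), its spermatid genes at 87.9 CPM lay within their range (70.7 to 96.1), its spermatogonial markers at 1684 CPM were the highest (1216 to 1684) and its Sertoli cell markers at 114 CPM the lowest (114 to 206). The part of these differences in the locus counts was not tested.

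Loci were then divided by their precursor RNA between P10 and P14 in heterozygous testes, a measure from other libraries. Of all tested features 28.6% rose and 25.4% fell over that interval. Of the 100 intergenic loci the precursor rose at 91, fell at 2, did neither at 6 and was not tested at 1, and of the 114 genic loci it rose at 14, fell at 56, did neither at 38 and was not tested at 6. Both loci of the falling intergenic group, 7-qD2-40 (-0.94, adjusted p = 1.38e-08) and 2-qE5-4, were named above for their small RNA.

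The 91 intergenic loci with a rising precursor summed to 812, 943, 996 and 1165 CPM in untreated and to 5514, 37130, 6670 and 5940 CPM in enriched libraries. Leaving out heterozygous enriched 2, the other 3 summed to 6041 ± 585 CPM (SD, n = 3), 6.17-fold above the untreated mean of 979 ± 146 CPM (SD, n = 4). The 2 falling intergenic loci went from 2147 ± 325 to 14809 ± 1007 CPM, 6.90-fold, and the 56 genic loci with a falling precursor from 11174 ± 1643 to 78110 ± 7445 CPM, 6.99-fold (SD, n = 4 each). In untreated P10 testis the 91 rising loci thus held less small RNA in all than the 2 falling ones.

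Tests on the rising loci depended on that library. With all 8 libraries, 5 of the 73 tested rose and none fell, with a median of 0.52. Without heterozygous enriched 2, under which 3.64% of 12173 tested features rose and 6.97% fell, 2 of these loci rose and 25 fell, with a median of -0.67. No other intergenic locus fell there. 17-qA3.3-26735 was among the 25, at -1.87 (adjusted p = 6.14e-11) in place of 0.72 ± 0.63 (adjusted p = 0.495). In share the 25 were at 0.731 to 3.92 times their untreated CPM. Genic loci moved less, with 4 of 103 higher and 42 lower without that library.

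**Figure D4:**
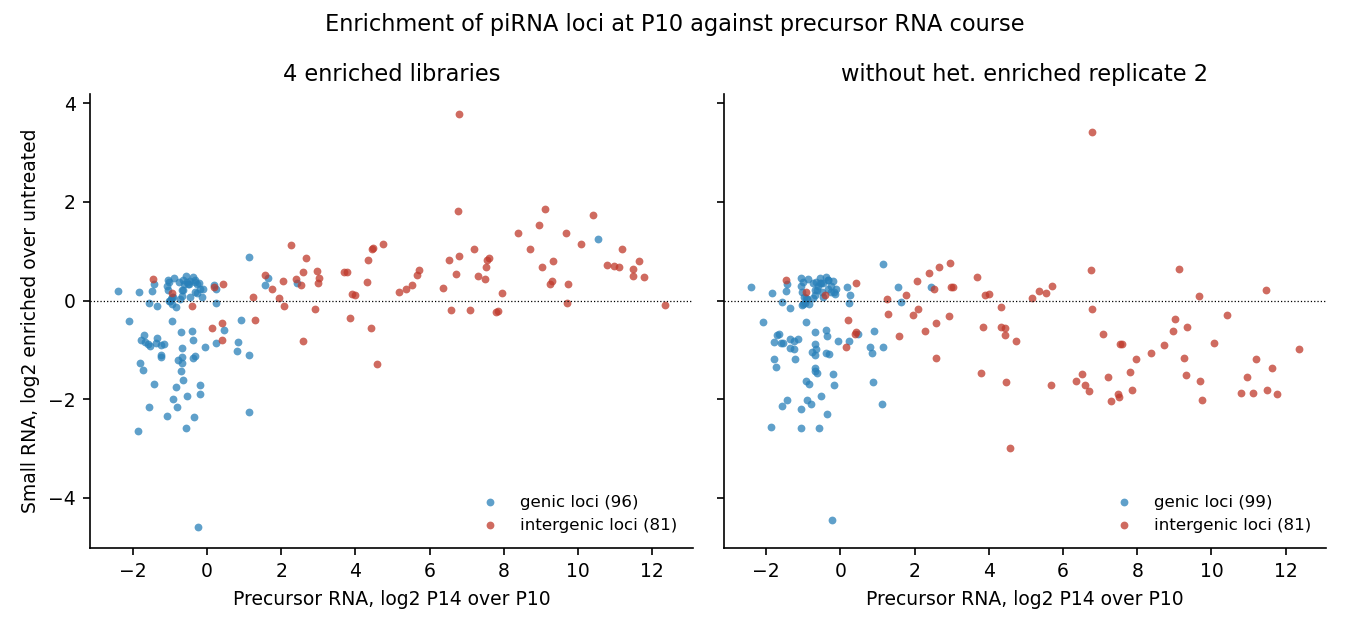
Log2 difference between enriched and untreated P10 libraries of the tested piRNA loci (vertical axis) against the log2 difference of their precursor RNA between P14 and P10 (horizontal axis), 1 point per locus, genic in blue and intergenic in red, with all libraries (left) and without heterozygous enriched 2 (right). The median of intergenic loci with a rising precursor moves from 0.52 to -0.67.

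Across the 91 rising loci the profile of heterozygous enriched 2 was closer in rank to P14 than to the other enriched P10 libraries. Spearman's rho over the 91 loci, given as a description, was 0.886 with heterozygous enriched libraries of P14, 0.840 with those of P18, 0.875 with heterozygous untreated 2 of P10, whose replicate number it shares, and 0.701 with the mean of the other 3 enriched P10 libraries. The sum of these loci in the P14 libraries, 675722 CPM, was 18.2 times its own.

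**Figure D5:**
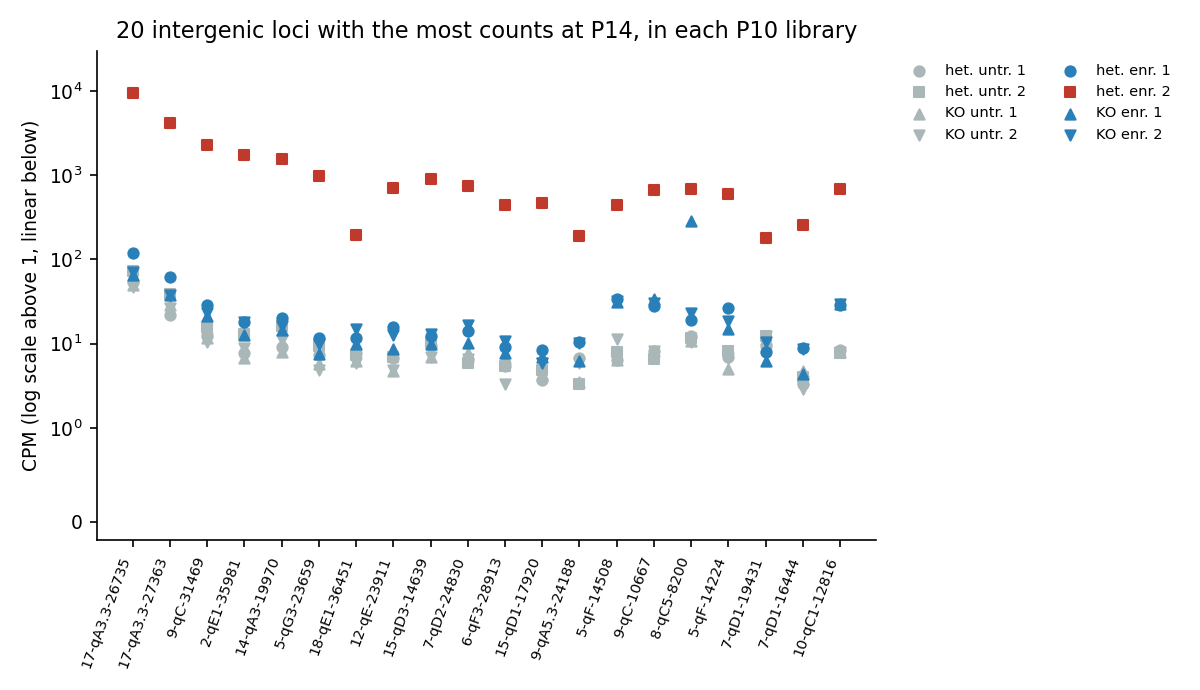
CPM (symmetric log axis) of the 20 rising intergenic loci with the most counts in P14 heterozygous enriched libraries, in each P10 library. Heterozygous enriched 2 lies apart from the other 3 enriched libraries, with 9483 CPM at 17-qA3.3-26735 against 64.7 to 119.

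The rows of ordinary genes that rose had a higher median level than the others. The 614 that rose had a median of 14.4 CPM without and 132 CPM with enrichment, the 9598 not called 1.93 and 10.7 CPM, and the 529 that fell 3.14 and 8.39 CPM. A miRNA or snoRNA gene overlaps 7.04, 6.83 and 8.73% of them respectively. *Becn2*, a member of the beclin family of autophagy genes, had the smallest p, with 3.52, 2.34, 1.98 and 2.46 CPM against 120, 97.3, 91.2 and 81.4 CPM (2.63 ± 0.20, adjusted p = 4.81e-09). *Svep1*, *Vstm2b*, *Oprd1*, which encodes an opioid receptor, *Mxd4* and *Slc35a4* rose by 2.23, 1.61, 1.05, 1.01 and 0.91. These rows had no overlap between the kinds of library. Of the 10741 tested ordinary genes 10420 likewise lay above without overlap.

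The called rows of the germ cell lists rose, and those of the Sertoli cell and peritubular lists fell. Among piRNA pathway genes 4 of 25 tested rose and none fell (median 0.16), beside 5.57% higher and 8.48% lower over all features: *Piwil2*, the PIWI protein of prepachytene piRNAs (0.47 ± 0.15, adjusted p = 0.0391), *Tex15*, which acts in transposon silencing (0.47, adjusted p = 0.0231), *Exd1* (0.52, adjusted p = 0.0396) and *Btbd18* itself (0.98 ± 0.29, adjusted p = 0.0282). *Btbd18* had 3.11, 3.98, 0.992 and 1.79 CPM without and 39.1, 28.3, 14.7 and 27.8 CPM with enrichment, and its call was lost without knockout enriched 2 (0.74, adjusted p = 0.106). *Henmt1* (0.29, adjusted p = 0.357), *Piwil4* (-0.54, adjusted p = 0.58) and *Mybl1*, the activator of pachytene loci (0.62, adjusted p = 0.512), missed the threshold. *Exd1* did not pass without heterozygous enriched 2 (adjusted p = 0.0666).

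Of 19 tested spermatogonial genes 4 rose and none fell (median 0.44, against 5.57% of all features higher), namely *Uchl1* (0.76, adjusted p = 0.00282), *Upp1* (1.11, adjusted p = 0.0161), *Zbtb16* (0.60, adjusted p = 0.0168, and 0.0639 without heterozygous enriched 2) and *Lin28a*, a repressor of let-7 (0.47, adjusted p = 0.0192). *Zbtb16* had 37.1, 46.6, 47.6 and 58.4 CPM against 322, 603, 368 and 456 CPM. Of 18 tested genes of meiotic prophase *Zcwpw1* alone rose (1.14, adjusted p = 0.00217), a share of the list near the 5.57% of all features, and of 7 late pachytene and 4 spermatid genes none was called. Of 14 tested Sertoli cell genes 5 fell and none rose (median -0.77, against 8.48% of all features lower): *Sox9* (-1.27), *Amh* (-1.65), *Gata4* (-1.29), *Inha* (-1.53) and *Inhbb* (-1.97). *Acta2* fell among 4 peritubular genes (-1.76), and none of 4 Leydig cell genes, 1 leukocyte and 1 adipose gene was called. The falls of these 6 genes turn to gains of 0.62 to 1.33 by total counts, so their shares were higher after enrichment.

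Small RNA over ordinary genes was also set against their testis RNA, taken as the mean of the heterozygous P10 libraries. Small RNA was averaged over both genotypes. Over 10372 of them Spearman's rho between small RNA and P10 testis RNA was 0.464 for untreated and 0.356 for enriched libraries, against 0.939 between the kinds of small RNA library, all given as descriptions across genes. Small RNA per testis RNA CPM was then taken for the 100 genic loci with at least 1 CPM of testis RNA. Its median log2 ratio was 0.53 untreated and 2.33 enriched. In enriched libraries 94 of them had a higher CPM than in testis RNA. CPM of small RNA and of testis RNA are parts of unlike totals, so these ratios do not compare amounts of RNA. The 24 intergenic loci went from 0.98 to 5.01, or to 3.39 without heterozygous enriched 2. For 13878 ordinary genes the ratio went from -4.37 to -2.24, far below the loci in both kinds of library.

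Between genotypes, no difference in what the enrichment kept passed the test. The log2 differences of heterozygotes and knockouts correlated at 0.817 over 11417 features, which share the fit and its scaling. The correlation was 0.912 over 283 miRNA genes, 0.925 over the 97 genic loci and only 0.428 over the 10741 ordinary genes. Over the 81 intergenic loci the correlation was -0.373, with medians of 0.96 in heterozygotes, which include the library that stood apart, and -0.11 in knockouts, where none rose and 2 fell. In edgeR's test of the difference itself no feature was called, while 258 were higher and 261 lower in knockouts at an unadjusted p below 0.05, DESeq2 called 1 and the replicate block 1. In simulated data of this design, without the real shift between kinds of library, the test found 50.5% of 4-fold and 3.1% of 2-fold differences in enrichment.

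Within each kind of library, knockouts differed from heterozygotes at 0 features in untreated libraries (217 higher and 315 lower at an unadjusted p below 0.05, and 27 called by DESeq2, all lower) and at 16 features (0.14%), all lower, in enriched ones. The intergenic locus 15-qE1-1119 led, with 54.7 and 81.6 CPM in heterozygous and 11.2 and 18.3 CPM in knockout enriched libraries (-2.18 ± 0.27, adjusted p = 0.00224), and it was the one call that remained without heterozygous enriched 2 (adjusted p = 0.00895). *Nanos2*, a gene of spermatogonial stem cells, had 10.4 and 8.19 against 0.937 and 1.55 CPM (-2.79, adjusted p = 0.043, and 0.112 without that library), and in whole testis fewer cells of a type and less RNA per cell cannot be told apart. 17-qA3.3-26735, 12-qE-7089 and 5-qF-4633 were lower by 6.08, 5.40 and 1.42, and their adjusted p became 0.391, 0.804 and 0.435 without it. Leaving out other libraries changed the count as well, to 0 without knockout enriched 1, 1 without knockout enriched 2, 1 without heterozygous untreated 1 or either knockout untreated library, and 44 without heterozygous enriched 1. The test of the difference in enrichment gave 0 calls without knockout enriched 2 and 36 without heterozygous enriched 1.

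Against later ages in heterozygotes, no piRNA locus of 211 tested passed the test of a difference in enrichment. This fit shares its spread with P18 knockout enriched 1, which stood apart from its replicate. Its intergenic loci took 86.6% of counts, beside 45.9% in its replicate and 91.8 and 92.9% in heterozygous enriched libraries of P18. It had 395 *Btbd18* counts, beside 90 in its replicate and 30 and 18 in those heterozygous libraries. Both knockouts were thus above both heterozygotes, so these counts cannot speak against its label. Whether the label is right was not tested. Without P18 knockout enriched 1 and the untreated library of its number, 1 locus was called at P18 and none at P14. Other settings called loci at P18 as well: 7 lower by total counts, 2 higher by RLE, 1 higher and 19 lower without a filter, and 3 higher and 1 lower by DESeq2. Between P14 and P10 no feature differed in its enrichment by edgeR (309 higher and 711 lower at P14 at an unadjusted p below 0.05, and 1 called by DESeq2 and 1 with the replicate block). Between P18 and P10, 83 of 13307 features differed (0.624%), 52 higher and 31 lower at P18. That split turned with the scaling, to 1 higher and 11 lower by total counts and to 68 higher and 7 lower by RLE. Simulated data of these designs, without the real shifts between kinds of library and ages, gave calls for 22 and 29.1% of 4-fold differences and for none of the 2-fold ones.

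H/ACA snoRNAs took 15 of the 52 calls higher at P18, out of 31 tested, and their median enrichment went from -2.44 at P10 to -1.79 at P14 and -0.04 at P18. On the same relative scale box C/D snoRNAs stayed at -3.75, -3.25 and -3.75, and miRNA genes at -6.36, -6.00 and -6.02. In share these courses differed. Summed CPM of H/ACA genes in heterozygotes went from 2800 to 11752 with enrichment at P10 and from 208 to 962 at P18, a gain at both ages. That of box C/D genes went from 433110 to 171784 and from 248064 to 15400, and that of miRNA genes from 372720 to 28827 and from 114593 to 2370. Both of these classes thus lost more of their share at P18. Rnu11 went from -3.42 ± 0.39 at P10 to 1.49 ± 0.35 at P18, Rnu12 from -4.44 to 0.92, Snora16a from -3.83 to -0.04 and Snord22 from -5.01 to -0.35. These RNAs were scarce at P18, with 1.92 CPM of Rnu11 in untreated libraries against 217 CPM at P10. Genes lower at P18 included *Ints5*, *Rangrf*, *Magi1* and *Zbtb22*, at log2 differences of enrichment of -1.84, -3.02, -2.49 and -2.03. Without heterozygous enriched 2 of P10, 16 calls were made in place of 83, all higher at P18, so that these 4 genes and all other calls lower at P18 were lost (adjusted p = 0.102, 0.0967, 0.218 and 0.173). Leaving out any 1 of the other heterozygous libraries of these ages gave 17 to 56.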

How the data were processed

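Whole testis RNA was extracted with TRI Reagent and small RNA libraries were size selected with an NEBNext kit, per the labels' protocols. Per the submitters' processing notes the tools were Subread 1.4.6-p3 with featureCounts, cutadapt 1.8.1, TopHat2 2.1, TopHat and Cufflinks, and the build mm10, with no roles given. Strand and multiple-match settings are not given in the sources used here, so overlapping and near-identical genes may share reads or lose them to another row. At genic loci the counts of the 4 enriched libraries stood at the locus rows (1332456), with 275 at host rows. The authors deposited raw counts per feature, which were used as deposited. No column of per-sample values was left unused (0), and 1 column that matches no title was used as an unnumbered P18 heterozygous untreated library.

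Counts were tested with edgeR 4.0.16 in R 4.3.3 (filterByExpr, TMM, glmQLFit, glmQLFTest), Benjamini-Hochberg over all tested features, threshold 0.05. At P10 the fit had 4 group means over 8 libraries (11417 of 24276 features, biological coefficient of variation 0.170, 4 residual degrees of freedom). Age comparisons used all 26 small RNA libraries (13307 features, 12 group means), and precursors the 20 testis RNA libraries (16334 features). Shares were compared by exact permutation in Python 3.11.15 with numpy 2.4.6, pandas 2.3.3 and scipy 1.17.1. Alternatives were other scalings, no filter, DESeq2 1.42.0, other sample sets, a replicate block and each library left out. On simulated P10 data the test made 163 calls with 10 false and found 64.5% of 2-fold and 97.9% of 4-fold differences. All simulated libraries had the same mean profile apart from the changed features. The real P10 libraries differed by kind at nearly all features, with TMM factors from 0.350 to 2.57, so these rates may not hold for them. Same-numbered libraries of both kinds deviated together (r = 0.1125 in heterozygotes and 0.1965 in knockouts over 4427 features). Crossed numbers give the same values with a minus sign by construction, so only the sign in each genotype is informative. That is at most a weak hint, from the data and not the design, that the numbers pair the libraries.

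Members, lists and tests were chosen with earlier results of these data known. Named were the 10 loci with the most enriched counts, the 6 smallest p per direction among intergenic loci, genic loci and miRNA genes, the 8 smallest among other features, the most abundant miRNA genes, the 5 smallest per direction of other comparisons, 5 fixed genes and up to 4 members a list, except 2 items that are not reported here. Rows outside the rule (Mir677, Mir547, Snord2, Snord104, Snora62, Snora78, 17-qA3.3-27363, *Gas5*, Rn45s, Rmrp, Rnu11, Rnu12 and Rpph1 at P10, and called list members) were chosen after their values were seen. Coordinates and sequences come from RefSeq on GRCm38, whose symbols matched 22550 rows directly and 23921 with synonyms, and 901 of 1121 miRNA rows had a hairpin entry.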

Additional observations from a re-analysis of the deposited data

Results flagged for a closer look

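In 20 of 218 groups of 4 P10 libraries that were checked, 1 library lay further from the other 3 than Dixon's 95% critical value for 4 samples allows. Chance gives about 5% of groups.

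Heterozygous enriched 2 accounted for intergenic loci at 5.29% of counts, 17-qA3.3-26735 at 9483 CPM, 17-qA3.3-27363 at 4136 CPM, 12-qE-7089 at 547 CPM and *Zbtb22* at 64.9 CPM. Heterozygous enriched 1 accounted for other small structured RNAs at 14.8% of counts, pi-Rab11fip4 at 5669 CPM, Scarna17 at 0.799 CPM and *Tmem38b* at 21.6 CPM. Knockout enriched 1 had *Vstm2b* at 85.0 CPM and *Henmt1* at 37.5 CPM, and knockout enriched 2 had pi-D730040F13Rik at 6081 CPM. Among untreated libraries, heterozygous 1 had *Upp1* at 2.28 CPM and *Piwil4* at 1.04 CPM, heterozygous 2 *Inha* at 0.937 CPM, knockout 1 Mir881 at 17434 CPM, Rnu11 at 330 CPM and *Mybl1* at 0.744 CPM, and knockout 2 pi-Rad54l2 at 15.9 CPM and Scarna17 at 67.6 CPM.

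The enrichment differed between P18 and P10 in heterozygotes at 83 features by the test of that difference in edgeR. Those named, from the smallest p, were Rnu11 (4.91), Rnu12 (5.36), Snora16a (3.79), Snord22 (4.65) and *Tmem38b* (4.51), higher at P18, and *Ints5* (-1.84), *Rangrf* (-3.02), *Magi1* (-2.49) and *Zbtb22* (-2.03), lower at P18, each as a log2 difference.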

How the results depend on the processing

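Of the alternative values, 1761 kept direction and side of the threshold, and the cause of the others was not tested, except that the scaling moved the median from -0.02 to 2.56. Every share of counts by class kept its direction and its call when miRNA genes were left out of the total or any 1 library was left out. For enriched against untreated libraries (1604 calls, 39.7% of them higher) heterozygotes alone gave 762 calls (20.9% higher), knockouts alone 699 (18.3%), total counts 11344 (96.9%), no filter 2804 (55.5%), all 26 libraries 2836 (77.5%), and locus counts as library size 5.10% higher. Leaving out 1 library gave 890 to 2016. Intergenic loci higher (6) were 0 in knockouts, 81 by total counts, 1 by locus counts, 45 without a filter, 3 with all 26 libraries, and 0 to 40 leaving out 1 library; lower (0) they were 2 in knockouts, 1 by locus counts, 1 without a filter, and 0 to 25 leaving out 1 library. Genic loci higher (8) were 0 in either genotype alone, 89 by total counts, 13 by RLE, 0 by locus counts, 25 without a filter, 14 with all 26 libraries, 14 by DESeq2 and 1 to 15 leaving out 1 library. Genic loci lower (40) were 21 in knockouts, 1 by total counts, 25 with all 26 libraries and 26 to 42 leaving out 1.

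The difference of enrichment between genotypes (0 calls) gave 36 without a filter, 1 by DESeq2 and 0 to 36 leaving out 1 library (36 without heterozygous enriched 1). The genotype comparison in untreated libraries (0) gave 16 without a filter, 27 by DESeq2 and 1 to 3 leaving out 1 library; in enriched libraries (16) it gave 34 by total counts, 27 by RLE, 55 without a filter, 0 with all 26 libraries, 1 by DESeq2 and 0 to 44 leaving out 1. P14 against P10 (0) gave 2 without a filter, 1 by DESeq2 and 0 to 29 leaving out 1 library. P18 against P10 (83) gave 12 by total counts, 195 without a filter, 172 by DESeq2, 16 to 56 leaving out 1 and, by an alternative chosen after seeing the data, 99 without both P18 knockout libraries of replicate 1. By total counts the sign turned for pi-Rad54l2 (0.0228), pi-Wdfy3 (0.24), pi-Rc3h1 (0.27), pi-Cramp1l (0.84), pi-Arhgap20 (0.34), Mir3535 (1.10), Mir547 (1.08), *Acta2* (0.83), Rmrp (1.53), *Sox9* (1.33), *Amh* (0.91), *Gata4* (1.30), *Inha* (1.05) and *Inhbb* (0.62).

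With the replicate block, intergenic loci higher were 10 and lower 1, genic loci higher were 19, the difference between genotypes gave 1 call, P14 against P10 gave 1, the enrichment gave 2007 calls and P18 against P10 gave 56.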
